A study of Homo sapiens with 3 samples.

Results

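ZBTB11 binding at the promoters of long noncoding RNAs (lncRNAs) was described from wide peaks that lay far from protein-coding starts. The members are ZBTB11 peaks on chromosomes 1 to 22 and X that were at least 500 bp wide, lay within 1 kb of a transcript start of a lncRNA gene, lay more than 3 kb from every transcript start of a protein-coding gene, and overlapped no peak of the IgG list. Of the 346803 ZBTB11 peaks on these chromosomes, 51238 were at least 500 bp wide, 1371 also met both distance limits, and 66 of these overlapped an IgG peak, which left 1305 members. The nearest starts to their summits belonged to 1233 lncRNA genes. Width, IgG overlap and the distances to starts chose the members, so all of these are given as a description only. The IgG list had peaks on 3 of the 23 chromosomes, and 1149 members lie on the others, where it could remove nothing.

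To find the genes that ZBTB11 occupies, the study used ChIP-seq, which sequences the DNA recovered with a protein by chromatin immunoprecipitation. The cells were NCI-H1299, a human lung cancer line that the study describes as p53-null. All 3 libraries came from untreated, formaldehyde-fixed cells whose genotype is given as wild-type (WT). One was immunoprecipitated with an antibody against ZBTB11, one with normal IgG as the negative control, and one was an Input library, which is left out here. There was a single library of each kind, so no difference has a replicate check, no p-value is given for any comparison, and the intervals below cover counting error over regions only.

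ZBTB11 belongs to a family of proteins that pair a BTB domain, used for contacts between proteins, with zinc fingers that contact DNA. LncRNA genes are transcribed by RNA polymerase II and many are spliced like protein-coding genes, but their transcripts carry no long reading frame. Some are hosts of small nucleolar RNAs (snoRNAs) or microRNAs, some arise from pseudogenes that kept or gained a promoter, and many start inside or opposite another gene. Promoters of broadly active genes commonly lie in CpG islands, stretches rich in G, C and the CpG dinucleotide. Summits are called CpG-island-like here where the 250 bp on either side have a GC content of at least 50% and an observed-to-expected CpG ratio of at least 0.6. The sequence CCGGAAG resembles the site that ETS factors recognise.

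The strongest members with the ETS-like motif show where the motif sits. The motif was searched as CCGGAAG or CAGGAAG, on both strands, wholly within 50 bp of the summit, the position of highest coverage. Each line gives a summit with 50 bases on either side, read from the plus strand of hg38, with every motif match in capitals. A match on the minus strand reads as CTTCCGG or CTTCCTG. These are the 6 members with the smallest p-values among those with the motif, leaving out 1 chromosome whose sequences are not printed here.

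ENSG00000291220 at chr5:70415251-70415351, 441 fragments: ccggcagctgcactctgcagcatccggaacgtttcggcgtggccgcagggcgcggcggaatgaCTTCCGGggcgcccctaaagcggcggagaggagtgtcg
NORAD at chr20:36050969-36051069, 465 fragments: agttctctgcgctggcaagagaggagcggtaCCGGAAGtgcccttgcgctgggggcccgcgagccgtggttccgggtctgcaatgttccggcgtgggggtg
ENSG00000263011 at chr16:3106505-3106605, 286 fragments: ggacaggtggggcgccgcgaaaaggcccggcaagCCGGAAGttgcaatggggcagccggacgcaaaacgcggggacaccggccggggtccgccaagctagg
ENSG00000291096 at chr3:125990467-125990567, 268 fragments: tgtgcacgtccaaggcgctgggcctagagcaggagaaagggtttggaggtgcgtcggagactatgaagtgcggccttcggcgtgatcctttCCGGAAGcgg
ENSG00000291228 at chr16:2603278-2603378, 250 fragments: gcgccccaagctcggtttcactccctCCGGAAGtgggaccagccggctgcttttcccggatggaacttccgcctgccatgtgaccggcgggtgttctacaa
MIATNB at chr22:26672868-26672968, 194 fragments: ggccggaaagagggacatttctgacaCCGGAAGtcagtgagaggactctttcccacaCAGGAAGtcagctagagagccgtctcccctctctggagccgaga

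The capitals fall on either strand and at varied distances from the middle of the window. At NORAD, a lncRNA that binds Pumilio proteins, the CCGGAAG match was on the plus strand and its centre lay 16 bp from the summit. The MIATNB window held 2 matches, 1 of each form.

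Strong peaks without the motif are shown for contrast. In these lines the capitals mark CCGGAA or its reverse complement TTCCGG, 6 letters of the motif that were chosen after the values were seen.

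JPX at chrX:73944203-73944303, 481 fragments: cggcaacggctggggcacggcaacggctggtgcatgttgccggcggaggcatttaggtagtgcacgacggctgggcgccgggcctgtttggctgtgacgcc
MRPS31P5 at chr13:52194436-52194536, 438 fragments: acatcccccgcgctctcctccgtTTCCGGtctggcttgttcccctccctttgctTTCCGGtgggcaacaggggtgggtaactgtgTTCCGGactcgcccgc
ZBTB46-AS1 at chr20:63807984-63808084, 496 fragments: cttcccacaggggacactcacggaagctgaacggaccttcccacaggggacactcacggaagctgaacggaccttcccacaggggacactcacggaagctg
ENSG00000273784 at chr13:52617411-52617511, 418 fragments: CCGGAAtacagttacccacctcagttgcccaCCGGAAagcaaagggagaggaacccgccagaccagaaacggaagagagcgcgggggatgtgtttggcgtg
GLUD1P3 at chr10:73730487-73730587, 466 fragments: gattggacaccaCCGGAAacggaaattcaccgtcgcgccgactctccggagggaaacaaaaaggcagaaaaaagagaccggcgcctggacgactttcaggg
ENSG00000261839 at chr6:28136838-28136938, 461 fragments: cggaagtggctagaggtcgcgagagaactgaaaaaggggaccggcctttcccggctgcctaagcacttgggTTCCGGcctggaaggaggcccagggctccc

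The JPX window held neither form nor the shorter letters. In the ZBTB46-AS1 window the same stretch of sequence recurs in tandem, and its central 31 bases occurred 4 times in the reference. MRPS31P5, ENSG00000273784, GLUD1P3 and ENSG00000261839 all held CCGGAA with a base other than G after it. At ENSG00000261839 a CCGGAAG crossed the edge of the window, with its centre 48 bp from the summit.

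Most members were shallow. The number of fragments stacked at the summit (the summit pileup) was recovered from the deposited fold enrichment and p-value. Over the 1305 members it ran from 3 to 496, with a median of 7 and quartiles of 5 and 15. The local background at the summits had a median of 1.65 fragments and ran from 1.35 to 29.3. Width had a median of 672 bp and a highest value of 1836 bp. Pileups of 3 to 6 fragments were found at 578 members, whereas 108 members had 50 or more. A q-value of 0.05 or less was listed for 595 members, 45.6% (Wilson 95% interval 42.9 to 48.3). The same held for 7.7% of all ZBTB11 peaks and 27.8% of all ZBTB11 peaks at least 500 bp wide. The width rule and the q-value come from the same library, so this share is a description.

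**Figure D1:**
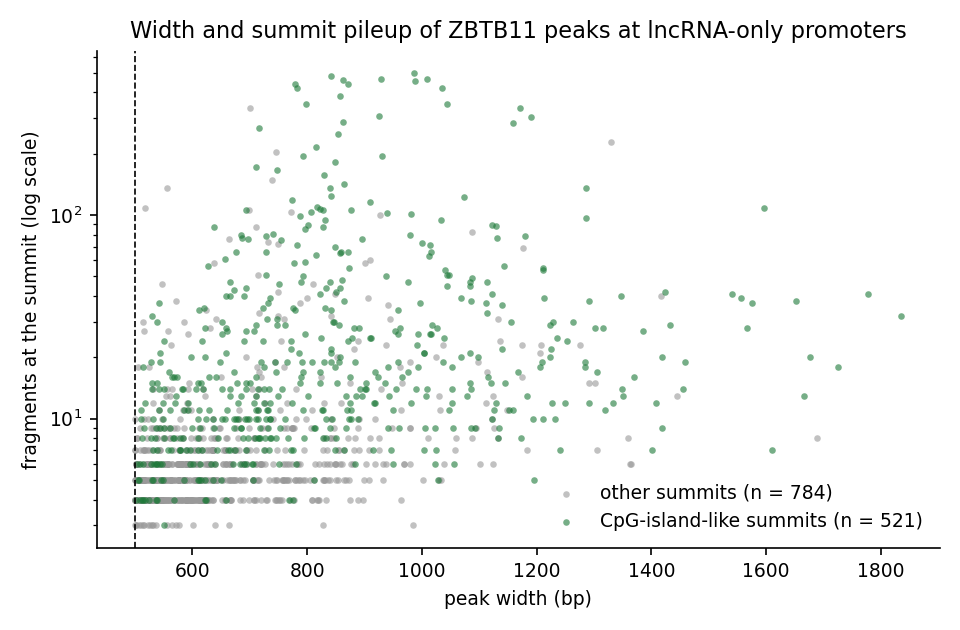
Width in bp (horizontal) against fragments at the summit (vertical, log scale) for each of the 1305 members, with 1 point per peak. Green points are the 521 CpG-island-like summits, grey points the others, and the dashed line marks the 500 bp limit; green points take up a growing part from 3 to 6 fragments (10.0%) to 50 or more (82.4%).

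At the width limit, peaks on either side overlapped in strength. The members just inside, all 500 bp wide, were at ENSG00000290812, FAM138E and ENSG00000290599 with 10, 7 and 7 fragments. Peaks 1 bp narrower that otherwise met the rule were at ENSG00000291212, ENSG00000272463 and ENSG00000284719 with 10, 7 and 5 fragments. In all, 791 peaks from 400 bp to just under 500 bp met every other condition.

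The 12 members with the smallest p-values held 337 to 496 fragments at their summits. JPX, a lncRNA of the X-inactivation centre, had the smallest p-value of the members and ranked 14 among all ZBTB11 peaks. Its peak covered chrX:73943854-73944695 at 20.7 times the background, with the summit in the first exon, 17 bp downstream of the start and 359485 bp from the nearest protein-coding start. NORAD was covered at chr20:36050411-36051419 at 19.2 times the background, with its summit 1 bp from the start. These peaks sat on the annotated start. Of the 12, 10 had the summit within 100 bp of a lncRNA start and 11 were CpG-island-like. Of the 12, 3 held the motif, at ENSG00000291220, NORAD and SNHG6, beside 38.0% of the members of 50 or more fragments and 11% of all members. Among the 9 without it, 5 held CCGGAA within 50 bp. At ENSG00000261839 and ENSG00000287168 a CCGGAAG crossed the edge of the window, centred 48 and 49 bp from the summit. No CCGGAAG or CAGGAAG occurred anywhere under the peaks of JPX, MRPS31P5, GLUD1P3, STAG3L4 or ENSG00000288552.

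Other strong members carried symbols that the annotation also gives to a pseudogene at the same place. MRPS31P5 (chr13:52194044-52194915, 438 fragments), GLUD1P3 (chr10:73730054-73730981, 466 fragments) and STAG3L4 (chr7:67302545-67303402, 383 fragments) are named as copies of MRPS31, GLUD1 and STAG3. The peak at ENSG00000288552 (chr13:89162994-89163694, 337 fragments) was the exception in base composition. Its 501 bp around the summit had a GC content of 45.7% and an observed-to-expected CpG ratio of 0.574.

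The label was checked against a second annotation. RefSeq placed a protein-coding start within 3 kb of 27 members, 2.07% (1.43 to 2.99), of which 1 was among the 12 strongest, at ENSG00000273784. These 27 are lncRNA-only by GENCODE release 44 but not by RefSeq, and they include MIR137HG, SNHG7 and MIRLET7BHG, described with the gene lists. The RefSeq set holds 1 start per gene and found one within 3 kb of only 70.4% of protein-coding promoter peaks, so the share is a lower limit. The distance to the nearest GENCODE protein-coding start had a median of 35955 bp over all members and a lowest value of 3022 bp.

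The motif was taken from the study, which found it among the ZBTB11-high peaks of its ChIP-seq. Any excess at the summits over flanks, lncRNA starts or weaker peaks was thus partly set by that choice and is a description. The motif stood at 144 of the 1305 summits, 11% (9.45 to 12.9). The background over all 51238 ZBTB11 peaks of this width was 7.2%. In windows of the same length 500 bp to either side of the member summits it stood in 105 of 2610, 4.02%. The difference between summits and flanks was 7.01 percentage points (95% interval 5.22 to 8.95, Newcombe's method). Windows of the same length centred on all 35494 lncRNA transcript starts more than 3 kb from protein-coding starts held it in 7.43%. CCGGAAG alone stood at 83 summits, 6.36%, against 2.43% of those start windows and 0.958% of the flanks. CAGGAAG alone stood at 66 summits, 5.06%, against 5.12% of the start windows and 3.10% of the flanks. The 2 forms thus differed in how far the summit share exceeded the share at lncRNA starts. Among the 144 members with the motif, the match nearest the summit was CCGGAAG in 78 and lay a median of 22 bp away, and its strand was that of the lncRNA in 73, 50.7% (42.6 to 58.7).

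The rise of the motif share with pileup was partly set by the same choice and is a description. The motif share rose with pileup. It was 4.50% (3.09 to 6.51) at members of 3 to 6 fragments and 7.21% (4.48 to 11.4) at 7 to 9 fragments. It was 11.7% (8.20 to 16.3) at 10 to 19 fragments and 21% (15.4 to 28.0) at 20 to 49. At the 108 members of 50 or more fragments it was 38.0% (29.4 to 47.4). The flank shares in the same order were 3.20%, 4.95%, 5.83%, 4.14% and 2.31%, so the rise was at the summits and not in the flanks. Summit minus flank was 1.30 points (-0.541 to 3.49) in the lowest band and 2.25 points (-1.40 to 6.75) in the next, where a difference was not detectable. It was 5.83 points (1.57 to 10.8), 16.9 points (10.6 to 24.1) and 35.6 points (26.6 to 45.2) in the upper 3 bands.

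The members were compared with 2 other sets of wide ZBTB11 peaks without IgG overlap. One held 11108 peaks within 1 kb of a protein-coding transcript start. The other, called distal, held 32446 peaks more than 3 kb from the start of any gene. Both come from the same library as the members. The study found the motif among ZBTB11-high peaks of that library. Of the wide peaks with 50 or more fragments, 2115 lay at protein-coding promoters, 108 were members and 200 were distal. The motif differences between these sets were thus partly set by that choice and are a description. The motif stood at 17.8% of the protein-coding promoter peaks, so the members differed by -6.78 points (-8.53 to -4.84). It stood at 3.46% of the distal peaks, from which the members differed by 7.58 points (5.98 to 9.40).

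The sets differed in strength, and the comparison was repeated within bands of pileup. The median pileup was 14 fragments at protein-coding promoters and 5 at distal peaks, against 7 at the members. Within bands, the difference between members and protein-coding promoter peaks was -0.193 points (-1.92 to 1.98) at 3 to 6 fragments, -0.408 points (-3.45 to 3.93) at 7 to 9 and -1.03 points (-4.73 to 3.79) at 10 to 19. It was -1.91 points (-7.81 to 5.31) at 20 to 49 and -2.23 points (-11.1 to 7.42) at 50 or more. The interval included 0 in each band, and the widest allows the members to be up to 11.1 points lower. For CCGGAAG alone the members were lower at 10 to 19 fragments, with 3.33% against 6.61%, a difference of -3.28 points (-5.18 to -0.0570), and in the other 4 bands the interval included 0. Against distal peaks the members were higher in every band, by 1.64 points (0.216 to 3.66) in the lowest and 16 points (5.35 to 26.7) in the highest. With summits of more than 1 exact copy left out of both sets, that difference was 1.64 points (0.0654 to 3.92) in the lowest band. In the upper 4 bands its interval then included 0, with 1.45 points (-1.50 to 6.38) at 7 to 9, -2.85 points (-7.91 to 3.23) at 10 to 19, -8.11 points (-16.8 to 1.65) at 20 to 49 and 8.18 points (-5.23 to 21.5) at 50 or more.

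**Figure D2:**
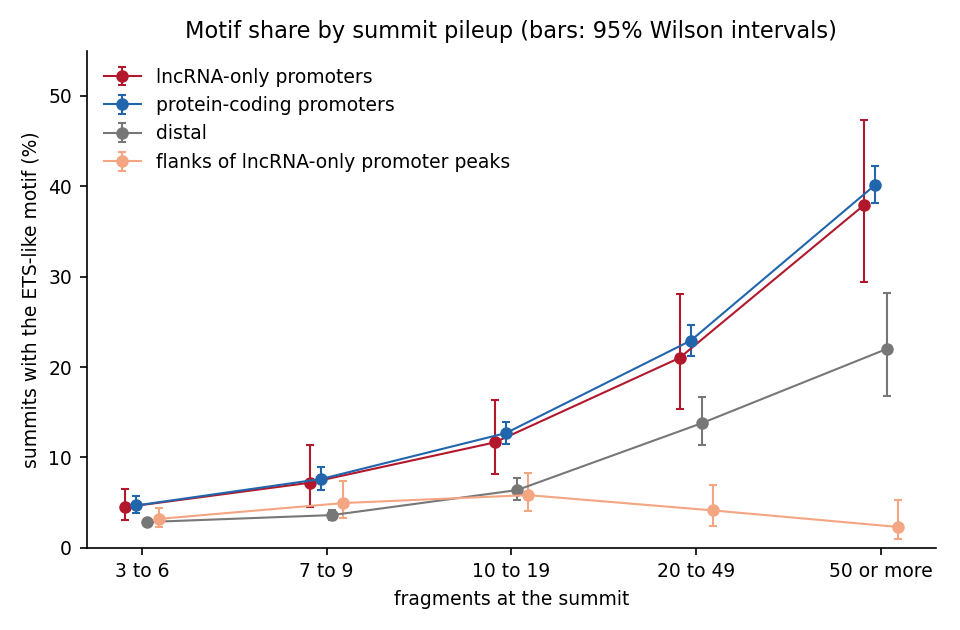
Share of summits with the ETS-like motif (vertical, %) in 5 bands of summit pileup (horizontal) for members (red), their flanks (light orange), protein-coding promoter peaks (blue) and distal peaks (grey); points are shares and bars 95% Wilson intervals. Members rise from 4.50% to 38.0% beside protein-coding promoters at 4.69% to 40.2%, while distal peaks end at 22% and flanks at 2.31%.

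Around the summit, motif matches were densest in the middle. Per 1000 members there were 1.5 matches per bp in the bin 25 bp upstream on the plus strand and 1.35 in the bin on the summit, against 0.307 and 0.552 in the outermost bins 500 bp away. At protein-coding promoters the matches were also densest near the summit.

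**Figure D3:**
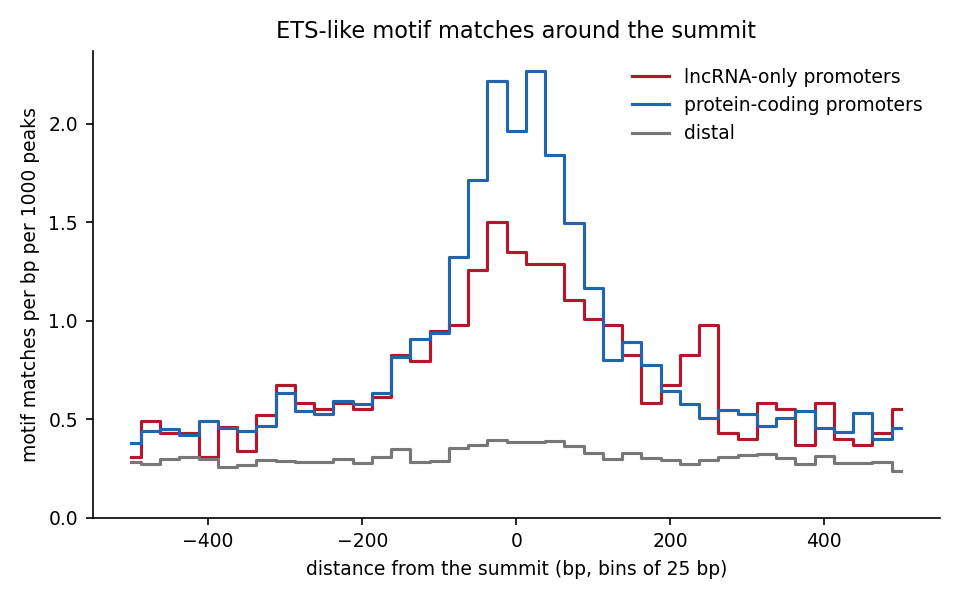
Matches to the ETS-like motif per bp per 1000 peaks (vertical) against the distance from the summit in bp along the plus strand (horizontal, bins of 25 bp) for members (red), protein-coding promoter peaks (blue) and distal peaks (grey). The red line reaches 1.5 near the summit, below the blue line, and the distal line is nearly flat.

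The letters that led among strong members were counted without reference to the motif. The study had found the motif among ZBTB11-high peaks of the same library, so a lead of CCGGAAG was partly set beforehand. Among all 7-letter sequences, counted with their reverse complements, CCGGAAG had the largest excess of summit over flank share at the 108 members of 50 or more fragments. It stood in 36 of 108 summit windows, 33.3%, and in 1 of 216 flank windows, 0.463%. Neighbouring sequences that overlap it followed, namely CGGAAGT in 23 windows, CCCGGAA in 22 and ACCGGAA in 21. The 67 members of this strength without the motif gave another order. The sequences GGCGGGG and GGGCGGG each stood in 12 of 67 windows and 5 of 134 flanks, and the second of them holds GGGCGG, the SP1-type letters. The shorter CCGGAA stood in 14 of those 67, 20.9% (12.9 to 32.1), and in 2 of 134 flanks. These letters were picked from the same windows, so their shares are a description.

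Letters of other promoter factors were searched the same way, on both strands. GGGCGG, the core that SP1 recognises, stood at 15.3% of the members, 8.20% of their flanks, 28.3% of protein-coding promoter peaks and 1.67% of distal peaks. At 50 or more fragments the shares were 34.3% of members and 31.3% of protein-coding promoter peaks. SP1-type letters were thus also commoner at strong members than over all of them. The CpG-island-like share of members rose as well, from 10.0% at 3 to 6 fragments to 82.4% at 50 or more. The part of base composition in these letter shares was not tested. CCAAT, the NF-Y box, stood at 9.43% of members and 12.3% of their flanks. TATAAA stood at 4.52% of members, 10.9% of distal peaks and 0 of the 108 strongest members, which by a limit of 3 counts allows up to 2.78%. The letters of NRF1 (GCGCATGCG), CREB (TGACGTCA), YY1 (AANATGGCG), ZBTB33 (TCGCGAGA) and ZNF143 (CTACAATTC) each stood at 6 or fewer members. At members and flanks the shares were 0.460% and 0.0383% for NRF1, 0.0766% and 0.268% for CREB, and 0.383% and 0.115% for YY1. They were 0.0766% and 0% for ZBTB33, and 0% and 0.115% for ZNF143. Windows on lncRNA starts away from protein-coding starts held the NRF1 letters in 0.614%. TGANTCA, the AP-1 site, stood at 27 members, 2.07%, against 3.07% of their flanks and 3.36% of distal peaks. A match is only a match of letters.

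CpG-island-like summits made up 521 of the 1305 members, 39.9% (37.3 to 42.6). Protein-coding promoter peaks had 73.0% and distal peaks 1.83%, and the members differed by -33.1 points (-35.8 to -30.3) and 38.1 points (35.5 to 40.8). This difference from protein-coding promoters was present in every band of pileup. The members had 10.0% against 24.2% at 3 to 6 fragments, 36.9% against 68.1% at 7 to 9 and 72.1% against 84.1% at 10 to 19. At 20 to 49 fragments they had 75.8% against 88.7%, and at 50 or more 82.4% against 92.7%, a difference of -10.3 points (-18.6 to -4.12). The interval lay below 0 in all 5 bands.

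**Figure D4:**
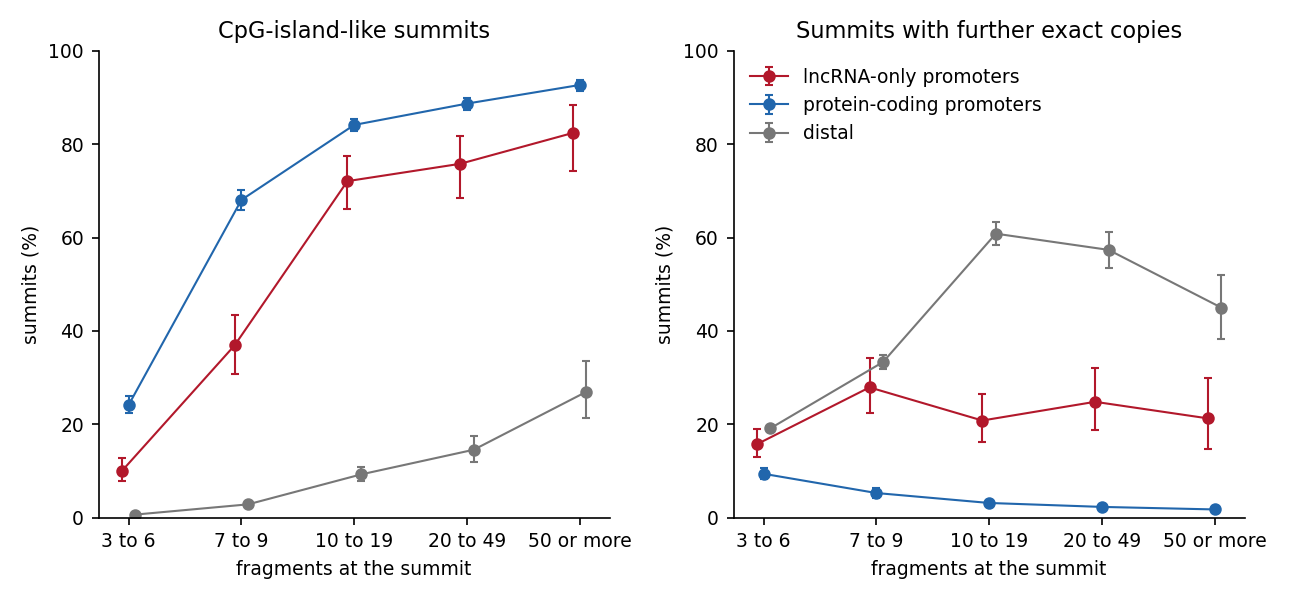
Left, share of CpG-island-like summits (vertical, %) and right, share of summits whose central 31 bases occur more than once in the reference (vertical, %), in 5 bands of summit pileup (horizontal) for members (red), protein-coding promoter peaks (blue) and distal peaks (grey), with 95% Wilson intervals. Members lie below protein-coding promoters on the left at every band and above them on the right, where they reach 21.3% against 1.80% at 50 or more fragments.

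Summits lay close to the lncRNA start when the peak was strong. A limit of 1 kb to a start chose both the members and the protein-coding promoter peaks. The distances and their differences are thus a description. The distance from summit to nearest lncRNA start had a median of 305 bp and quartiles of 93 and 702 bp, and the peak itself covered a lncRNA start at 726 members, 55.6%. The median distance was 528.5 bp at 3 to 6 fragments, 320 bp at 7 to 9, 179.5 bp at 10 to 19, 131 bp at 20 to 49 and 62.5 bp at 50 or more. Distance shortened with each band of pileup. Within 100 bp of the start lay 26.2% of member summits and 42.0% of those at protein-coding promoters, a difference of -15.8 points (-18.3 to -13.1). Within bands it was -4.34 points (-7.24 to -1.07) at 3 to 6 fragments, -7.27 points (-12.8 to -0.905) at 7 to 9 and -7.04 points (-13.0 to -0.576) at 10 to 19. The interval included 0 in the upper 2 bands, with -4.08 points (-11.9 to 3.98) at 20 to 49 fragments and -6.52 points (-16.1 to 2.30) at 50 or more. Genes differ in how many starts are annotated, and its part in this difference was not tested. Summits were downstream of the start in 650 members, 49.8% (47.1 to 52.5).

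**Figure D5:**
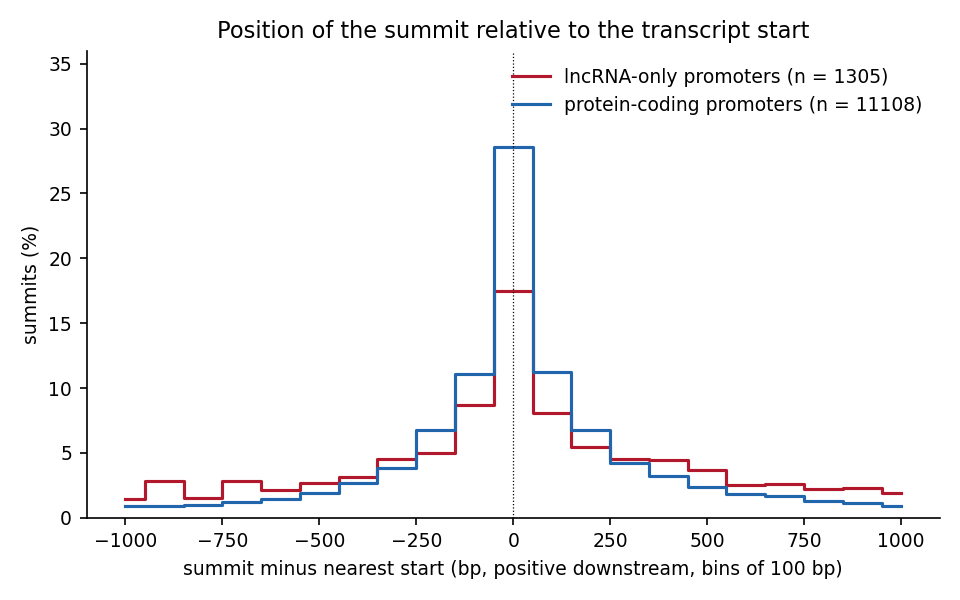
Share of summits (vertical, %) by position of the summit relative to the nearest transcript start in bp (horizontal, positive downstream, bins of 100 bp) for the 1305 members (red, lncRNA starts) and the 11108 protein-coding promoter peaks (blue, protein-coding starts). The bin on the start holds 17.5% of member summits and 28.6% of the others, and the red line is higher in the bins far from the start.

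Members differed among themselves by how the lncRNA is arranged. At 144 members, lncRNA starts lay on both strands within 1 kb of the peak. Of these 75% were CpG-island-like against 35.6% of the others, a difference of 39.4 points (31.3 to 46.3), and 18.1% held the motif against 10.2%, a difference of 7.89 points (2.15 to 15.2). They were also stronger, with a q-value of 0.05 or less at 73.6% against 42.1%. Within bands of pileup the CpG-island-like share remained higher at starts on both strands in 4 of 5 bands, with 100% against 76.8% at 50 or more fragments, and the interval included 0 at 20 to 49. The motif difference had an interval that excluded 0 only at 7 to 9 fragments, 16.2 points (3.46 to 36.5), and its sign varied between bands. The summit was inside the body of a protein-coding gene at 231 members, 135 of them in an intron with the lncRNA on the opposite strand. Here 18.2% were CpG-island-like against 44.6% of the others, and 6.49% held the motif against 12%, a difference of -5.52 points (-8.79 to -1.18). A q-value of 0.05 or less was listed for 27.7% of them against 49.4%. Within bands the interval of the motif difference included 0 in all 5, and the CpG-island-like share was lower at 3 to 6 and 7 to 9 fragments, with intervals that included 0 above. By lncRNA annotation, 386 summits were in a first exon, 57 in a later exon, 478 in an intron and 384 outside any lncRNA gene. The first-exon summits had the motif in 16.3% (13 to 20.3) and the intronic ones in 7.11% (5.13 to 9.78), and a q-value of 0.05 or less in 64.8% and 33.5%. Within bands a motif difference was detectable only at 10 to 19 fragments, 10.7 points (0.140 to 19.9).

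Many members lay at duplicated sequence. The central 31 bases of the summit occurred more than once in the reference at 265 members, 20.3% (18.2 to 22.6), against 4.24% at protein-coding promoters and 23.9% at distal peaks. The difference from protein-coding promoters was 16.1 points (13.9 to 18.4). At 50 or more fragments 21.3% of members had such summits, against 1.80% of protein-coding promoter peaks and 45.0% of distal peaks. A read that lies wholly in copied sequence can be placed at any copy, and how such reads were filtered is not given in the sources used here. Exactly 2 copies were found for 96 members, and 43 had more than 20. For the 222 members with 2 to 20 copies, another copy lay within 1 kb of a protein-coding start in 65, 29.3% (23.7 to 35.6), and another copy lay under a further ZBTB11 peak in 121. An example is ENSG00000291220, with 1 of its copies 37 bp from a start of GTF2H2C. TMEM191A (60 fragments) had its only other copy 19 bp from a start of TMEM191B. ENSG00000290890 (42 fragments) had its only other copy 42 bp from a start of PDPR. No such counts were taken for the other peak sets, and a summit with more copies has more chances. The 65 and the 121 are thus a description. The further peak can itself be a member, so 1 pair of loci can enter at both members. The motif stood at 10.2% of copied and 11.2% of single-copy member summits, and no difference was detectable (-1.06 points, -4.78 to 3.53).

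Pseudogenes accompanied the stronger members. A pseudogene start lay within 1 kb of 145 members, 11.1% (9.52 to 12.9), against 1.29% of protein-coding promoter peaks. That share was 4.33% at 3 to 6 fragments, 9.91% at 7 to 9, 17.9% at 10 to 19, 19.7% at 20 to 49 and 22.2% at 50 or more, whereas protein-coding promoter peaks stayed between 1.05% and 1.74%. The lncRNA nearest the summit overlapped a pseudogene on its own strand at 305 members, 23.4% (21.2 to 25.7), beside 9.07% of all 18756 lncRNA genes on these chromosomes. The first share counts peaks at starts away from protein-coding starts and the second counts every lncRNA gene, so the 2 are not matched. At 73 members lncRNA and pseudogene shared a symbol. Members at lncRNAs that overlap a pseudogene were CpG-island-like in 57.0% (51.4 to 62.5), and the others in 34.7% (31.8 to 37.7). Their summits had further copies in 39.7% (34.3 to 45.3) against 14.4% (12.4 to 16.7), so the groups at pseudogenes and at copied sequence overlapped.

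A small group of members lay beside tRNA genes, which RNA polymerase III transcribes. Of the 1305 members, 26 had a RefSeq tRNA gene within 1 kb, 1.99% (1.36 to 2.90), against 0.378% of protein-coding promoter peaks and 0.188% of distal peaks. The difference from protein-coding promoters was 1.61 points (0.971 to 2.53). The tRNA gene lay under the peak in 17. These members were stronger than most, with a median of 21 fragments and a highest of 215. The strongest were at LARRPM (chr6:27019767-27020581, 215 fragments) beside TRI-TAT2-2, at ENSG00000283317 (chr1:161440207-161441137, 195 fragments) beside TRD-GTC2-1 and at LINC00324 (chr17:8222706-8223554, 182 fragments) beside TRP-CGG1-3. Chromosome 6 held 9 of the 26, beside 84 of the 1305 members, and its share of all tRNA genes was not counted. The motif stood at 1 of the 26, 3.85% (0.682 to 18.9), and 23 were CpG-island-like. In 7 of the 26 the tRNA gene was nearer to the summit than the lncRNA start, and in 2 it lay within 100 bp of the summit.

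The IgG library also listed peaks at tRNA genes, where ZBTB11 peaks lay too. It had 78 peaks at least 500 bp wide that met the same distance limits, of which 32 overlapped a ZBTB11 peak, and 4 of these 32 had a tRNA gene within 1 kb, against 0 of the 46 that overlapped none. On the chromosomes that the IgG list covers, 6 members were near a tRNA gene.

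LncRNA genes with a member were counted over all genes that could have one. Of 13919 lncRNA genes with a start more than 3 kb from protein-coding starts, 1388 had a member within 1 kb of such a start, 9.97% (9.49 to 10.5). Genes with no symbol beyond their Ensembl identifier had 780 of 9826, 7.94%, and LINC genes (intergenic lncRNAs) had 284 of 2191, 13% (11.6 to 14.4). Antisense genes, whose symbols end in AS and a number, had 99 of 951, 10.4%, and microRNA hosts had 15 of 64, 23.4% (14.7 to 35.1). SNHG genes, hosts of snoRNAs, had 14 of 20, 70.0% (48.1 to 85.5). Genes with any other symbol had 187 of 752, 24.9% (21.9 to 28.1), and genes named as divergent transcripts, with symbols ending in DT, had 9 of 115, 7.83% (4.17 to 14.2). The share at microRNA hosts was thus near that of genes with other symbols, and the interval of the SNHG genes lay above those of all the other classes. Expression was not measured in these files, and the number of annotated starts per gene was not matched. The part of either in this order was not tested.

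The snoRNA hosts form the first list of genes. Of the 15 members at such hosts, 10 had a q-value of 0.05 or less and 3 held the motif, against the 45.6% and 11% of all members, and their median pileup was 9. SNHG6, the host of SNORD87, stood out with 421 fragments and CCGGAAG 35 bp from its summit. SNHG15 had 55 fragments and CAGGAAG, SNHG17 had 37 and SNHG11 had 24. SNHG8 and SNHG12 had 16 fragments each, and SNHG7 had 13. The summits of SNHG6, SNHG15, SNHG17, SNHG11 and SNHG7 all lay within 100 bp of the start. DANCR had 9 fragments, and SNHG25 and SNHG27 had 8 each, the last at a summit with 20 copies. All but SNHG6 were below 60 fragments.

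The microRNA hosts gave 16 members at 14 genes, 8 with a q-value of 0.05 or less and 2 with the motif, near the 45.6% and 11% of all members. MIR137HG, host of the brain-enriched miR-137, had 124 fragments and CAGGAAG, MIR646HG had 106, and MIR762HG had 64 at a summit 1 bp from its start with CCGGAAG. MIRLET7A1HG had 54 fragments and MIR31HG had 15. MIR762HG held a second member of 11 fragments at another place. MIRLET7BHG had 11 fragments, MIR2052HG and MIRLET7IHG had 9 each, and MIR3681HG had 7. The list thus ran from strong to near the floor.

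LncRNAs studied in cancer gave 25 members at 18 genes, 14 with a q-value of 0.05 or less and 3 with the motif, beside 45.6% and 11% of all members, and their median pileup was 8. Of the 38 genes of the list that could have a member, 20 had one within 1 kb of a start, 52.6%, against 9.97% of all such lncRNA genes. That base is made up largely of genes without a symbol, and genes with other symbols had 24.9%. The number of annotated starts per gene was not matched, and its part in this share was not tested. JPX and NORAD led the list, as given above. TERC, the RNA template of telomerase, followed with 88 fragments at chr3:169764416-169765545, and its summit was 92 bp from the start. FIRRE, which takes part in X-chromosome organisation, had 42. KCNQ1OT1, the imprinted antisense transcript of KCNQ1, had 17 fragments, and LUCAT1 had 15 with CAGGAAG. PVT1, neighbour of MYC, had 14, and LINC00511 had 11. DLEU2 had 2 members of 12 fragments each. Past TERC and FIRRE, the named genes stood between 11 and 17 fragments.

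IgG could be weighed on only 3 of the 23 chromosomes. The IgG list had peaks on chromosomes 1, 10 and 21 and none on the other 20, where 1149 of the 1305 members lie and where the IgG rule could remove nothing. On the 3 chromosomes, 66 of 222 otherwise qualifying peaks were removed, 14 of them with 50 or more fragments, and 156 members remained. The strongest peaks removed were at ENSG00000254929 (chr10:47552977-47553974, 428 fragments), ENTPD1-AS1 (chr10:96089596-96090519, 297 fragments) and CROCCP2 (chr1:16644128-16644971, 239 fragments). Peaks as strong as the named members were thus among those that the IgG rule took out. Of the 78 wide IgG peaks by the same distance limits, the 46 without a ZBTB11 peak had 4 to 11 fragments. Their summits held the motif in 1 of 46 and were CpG-island-like in 2 of 46. The other 32, which overlap a ZBTB11 peak, are not in that set, so its shares describe only IgG peaks outside ZBTB11 peaks. At 3 to 6 fragments, the depth of 30 of the 46, members on these chromosomes were CpG-island-like in 9.33% and those IgG peaks in 3.33%, and a difference was not detectable (6.0 points, -8.15 to 15.1). At 7 to 9 fragments the shares were 44% of 25 members and 6.67% of 15 IgG peaks, a difference of 37.3 points (8.41 to 57.0). For the motif no difference was detectable in either band.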

How the data were processed

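ChIP-seq libraries of NCI-H1299 cells for ZBTB11 and normal IgG were analysed as peak lists, 1 per library, grouped by sample title. The study's methods state that BWA placed the paired reads on hg38 and that MACS was run on each library by itself, keeping p-values below 0.05. No replicates were pooled. In the lists deposited by the authors, fold enrichment is a ratio of summit to local background. Significance was deposited as −log10 of the p-value and −log10 of the q-value. The deposited score is a whole-number form of the first of these and was not used. The total depth of the libraries is not in these lists, so precision was read from the pileup of each peak.

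Pileup and background were solved from the fold and −log10 p, with Poisson counts and a pseudocount of 1 in both terms of the ratio, and all 96016 ZBTB11 peaks of 400 bp or more were solved within 0.001. Starts came from GENCODE release 44 on hg38, with all transcripts of protein-coding genes, and tRNA genes and the second set of protein-coding starts from RefSeq (GRCh38.p14, the same primary chromosomes). The RefSeq starts hold 1 start per gene. Copies are exact matches of the central 31 bases on both strands of the assembly without alternate haplotypes. Shares carry Wilson 95% intervals and differences of shares carry Newcombe 95% intervals, and the limit for a count of 0 is 3 counts of the total. Scans and intervals were tested on simulated data. Python 3.11.15, pandas 2.3.3, numpy 2.4.6 and scipy 1.17.1 were used.

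Members, lists and bands were chosen with earlier results of these data known. Named were the 12 members with the smallest p-values, the 3 peaks on each side of the width limit, up to 10 members by p-value from lists of snoRNA hosts, microRNA hosts and lncRNAs studied in cancer, and members whose windows are printed. TMEM191A, ENSG00000290890, the tRNA-linked members and the removed peaks were named after their values were seen. The Input library was not analysed here.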

Additional observations from a re-analysis of the deposited data

How the results depend on the processing

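No paired analysis was possible because there was 1 library of each kind. The 10 results were recomputed under 18 alternatives, 4 of them chosen after seeing the data, which gave 154 values. Of the 81 differences of shares, 78 kept their sign and kept 0 outside the interval, and no difference changed sign. The exceptions were all the motif share of members minus that of protein-coding promoter peaks. It was -3.73 points (-7.26 to 0.235) once a p of 1e-05 was required, -3.45 points (-6.56 to 0.0396) once a q of 0.05 was required, and -5.80 points (-10.3 to 0.307) on the chromosomes with IgG peaks alone. None of the alternatives matched pileup. Within bands of pileup, this difference had an interval that included 0 in each band, as given above. The motif difference from distal peaks, with copied summits left out, had such an interval in all but the lowest band. The number of members was 2096 from 400 bp, 854 from 600 bp, 489 at p of 1e-05 or less, 595 at q of 0.05 or less, and 156 on the chromosomes with IgG peaks. The motif share was 9.02% from 400 bp, 13.2% from 600 bp, 21.1% at p of 1e-05, 19.3% at q of 0.05, 5.82% within 25 bp, 18.9% within 100 bp and 6.36% for CCGGAAG alone. The CpG-island-like share was 29.4% from 400 bp, 51.5% from 600 bp, 48.1% with a start within 500 bp, 75.7% at p of 1e-05, 70.8% at q of 0.05, and 34.7% without peaks near a pseudogene start. The median distance to the start was 371.5 bp, 235 bp, 206 bp, 127 bp and 137 bp under the same first 5 settings, and 361 bp on the chromosomes with IgG peaks. The share with a q-value of 0.05 or less was 34.2%, 59.5%, 53.4% and 100% under the first 4, and 42.0% without peaks near a pseudogene start. The summit minus flank difference ran from 3.75 to 16.9 points. Leaving out members near RefSeq protein-coding starts, members near tRNA genes, or all but 1 member per gene moved no result past these limits. Depth limits single peaks, and 0 of the 578 members with pileups of 3 to 6 fragments had a q-value of 0.05 or less.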
